A study of Mus musculus with 12 samples.

Results

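Transporters that carry organic anions, drugs and bile constituents across the hepatocyte membrane were examined in mouse liver. The members were chosen by name: the rows of the genes Slco1a1, Slco1a4, Slco1b2, Slco2b1, Slco2a1, Abcc2, Abcc3, Abcb1a, Abcb4 and Abcg2, which are 10 of the 16821 genes listed. Liver RNA of 6 mice of the sedentary control (Con) group and 6 mice of the chronic exercise (Exe) group was sequenced, with 1 library per mouse, and the mice are named Con 1 to Con 6 and Exe 1 to Exe 6. All were male C57BL/6J mice bought at 8 weeks of age and given 1 week to adapt. Exe animals were trained by moderate treadmill running for 6 weeks (5 days per week, 60 min per day), and Con animals were not trained. Tissue was collected at most 24 h after the final session, following perfusion with saline, so effects of training and of the final session cannot be told apart. Expression is given as FPKM (fragments scaled to transcript length and to mapped fragments), a unit per length, so that levels of different genes can be set side by side. Summed over genes, libraries held 735200 to 820107 FPKM. The depth in reads is unknown, but the relative depth of the mice, estimated from genes so low that their values stepped in whole multiples, lay between 0.988 and 1.02.

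Hepatocytes take up organic anions from sinusoidal blood by organic anion transporting polypeptides, the Slco family, and pump them out again by ATP-driven Abc transporters. Pumps in the canalicular membrane (Abcc2, Abcb4, Abcg2 and Abcb1a) face the bile, whereas Abcc3 faces the blood. The handling of bilirubin, conjugated hormones, bile acids and many drugs depends on both steps, and several of these genes are known to be regulated by nuclear receptors that sense xenobiotics and bile acids.

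Promoter sequence is shown for members whose levels varied together across mice and had an entry in the RefSeq table of the build GRCm38.p6. The table held 9 of the 10 members, with 13 annotated starts, and Abcc3 was the one without an entry. The reads were aligned to another build, GRCm39, so these coordinates serve the sequence only. Each run begins 250 bases before the annotated start and ends before the outermost start of the gene. Capitals mark AGGTCA or its reverse complement TGACCT, the hexamer to which many nuclear receptors bind. The runs are Slco1a1 at chr6:141946963-141947212 (minus strand), Slco1a4 at chr6:141856285-141856470 (minus strand), Slco1b2 at chr6:141629268-141629451 (plus strand) and Abcc2 at chr19:43782058-43782307 (plus strand).
Slco1a1: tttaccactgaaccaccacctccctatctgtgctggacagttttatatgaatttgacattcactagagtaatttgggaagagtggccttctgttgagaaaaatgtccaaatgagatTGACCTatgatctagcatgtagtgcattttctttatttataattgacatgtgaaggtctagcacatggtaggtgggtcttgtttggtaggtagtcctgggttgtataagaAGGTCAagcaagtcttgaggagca
Slco1a4: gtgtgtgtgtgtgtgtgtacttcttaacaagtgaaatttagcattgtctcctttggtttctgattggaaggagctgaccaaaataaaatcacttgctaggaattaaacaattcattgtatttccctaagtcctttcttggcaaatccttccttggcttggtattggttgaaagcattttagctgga
Slco1b2: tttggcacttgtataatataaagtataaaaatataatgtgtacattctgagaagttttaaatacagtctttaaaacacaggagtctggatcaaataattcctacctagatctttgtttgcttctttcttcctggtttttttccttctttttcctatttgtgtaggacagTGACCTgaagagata
Abcc2: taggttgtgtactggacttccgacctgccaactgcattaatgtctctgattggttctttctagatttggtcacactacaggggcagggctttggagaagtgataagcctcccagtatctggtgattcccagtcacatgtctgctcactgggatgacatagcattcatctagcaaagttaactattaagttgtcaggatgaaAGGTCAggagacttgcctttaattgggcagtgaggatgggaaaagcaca
This hexamer was found on either strand in 5 of the 13 member windows of 250 bases and in 14.0% of the 32851 windows of all genes. Abcg2 and Slco2b1 each gave several of the 13 windows, so these are not separate genes. The hexamer was present at different starts of Abcg2. Slco1a1 held it at -134 to -129 and at -24 to -19 from its start, Slco1b2 at -81 to -76 and Abcc2 at -49 to -44, while the Slco1a4 window held none. Other motifs searched on both strands were the STAT palindrome TTCNNNGAA (2 of the 13 member windows, 7.02% of all windows), the antioxidant response core TGACNNNGC (1 window, 10.2%) and the dioxin response core GCGTG (1 window, 28.2%). A match of letters is a description of the sequence and not a measured binding site.

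Genes that define the liver were abundant. Alb, the gene of serum albumin, lay between 29517 and 48015 FPKM, and the 10 hepatocyte markers summed to between 72758 and 98127 FPKM. Other cells were present at lower levels. The sums were 91.8 to 148.8 FPKM for 12 markers of sinusoidal endothelium, 219.5 to 558 FPKM for 10 markers of Kupffer cells, 93.6 to 197 FPKM for 10 markers of stellate cells and 33.2 to 87.1 FPKM for 10 markers of bile ducts. The 11 female-biased liver genes listed summed to 1.93 FPKM or less in every mouse. In such bulk RNA, fewer cells of a type and less RNA per cell cannot be told apart.

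The members span a wide range of levels. Slco1b2, a main carrier for hepatic uptake of bilirubin conjugates and drugs, was the most abundant, with a mean of 257 FPKM over the 12 mice. Slco1a1, an uptake carrier known for its higher expression in male than in female mice, followed at 102 FPKM. A middle group held Abcb4 (61.1 FPKM), Abcc3 (60.1 FPKM), Abcc2 (51.4 FPKM), Slco2b1 (43.8 FPKM) and Abcg2 (36.8 FPKM). Below it were Slco2a1 (20.04 FPKM), Slco1a4 (13.1 FPKM) and Abcb1a (0.633 FPKM). Of the 9 neighbouring steps in this order, 3 held in every mouse without overlap of the ranges, namely Slco1b2 above Slco1a1, Abcg2 above Slco2a1, and Slco1a4 above Abcb1a. In the middle group the ranges of all neighbours overlapped, and no neighbouring step there held in all 12 mice. Abcb4 was above Abcc3 in 5 of 12 mice, and Abcc2 was above Slco2b1 in 6 of 6 Con mice but in 2 of 6 Exe mice.

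**Figure D1:**
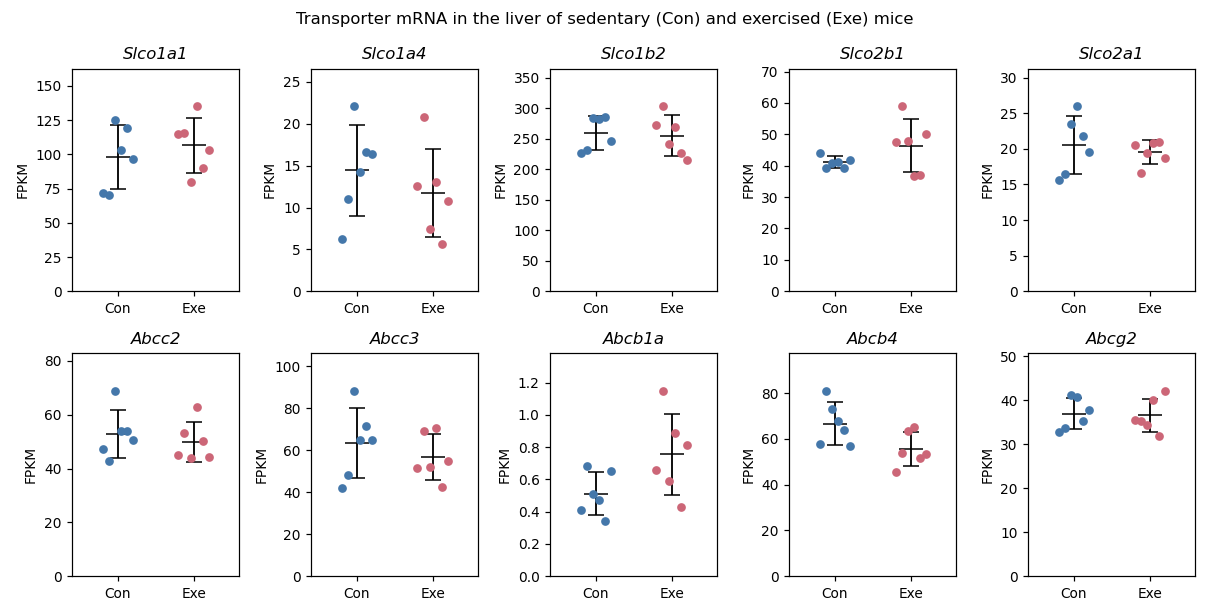
FPKM of each transporter (vertical axes, starting at 0) in the 6 Con mice (blue) and the 6 Exe mice (red), 1 point per mouse, with the group mean and SD as black bars. The groups overlapped for all 10 genes, and for Abcb4 4 of 6 Exe mice lay below every Con mouse.

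To ask whether 6 weeks of running changed transporter expression, log2(FPKM + 1) was compared between groups with limma over the 10241 genes with at least 1 FPKM in at least 6 of the 12 mice. Of the members, 9 passed this filter and Abcb1a did not. With the study's thresholds (adjusted p of 0.05 with Benjamini-Hochberg adjustment and an absolute log2 fold change over 1), 0 of the 9 members were called, as were 0 (0%) of all genes tested. The study itself used DESeq and reported differentially expressed genes at these thresholds. The count of 0 here holds for limma on log2(FPKM + 1). With an unadjusted limma p under 0.05 as the threshold, 1 of the 9 was called, Abcb4, which was lower in Exe mice, against 6.21% of the genes tested (4.27% higher and 1.94% lower in Exe mice). Slco1a1 and Slco2b1 had a higher mean log2 value in Exe mice and the other 7 a lower one (5 with FPKM rescaled to the same sum per mouse, where Slco1b2 and Abcg2 turned higher), where 57.5% of the genes tested were higher and 42.5% lower. The median log2 fold change of the 9 members was -0.05, compared with 0.02 over all genes tested. The groups overlapped for each member, and they did not overlap for 0.254% of the genes tested. Among the genes with an unadjusted limma p under 0.05, the share with a higher level after training was 68.7% in FPKM as deposited, 88.1% when each mouse was rescaled to the same sum, 56.4% with quantile normalization and 56.3% with scaling by median ratios.

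**Figure D2:**
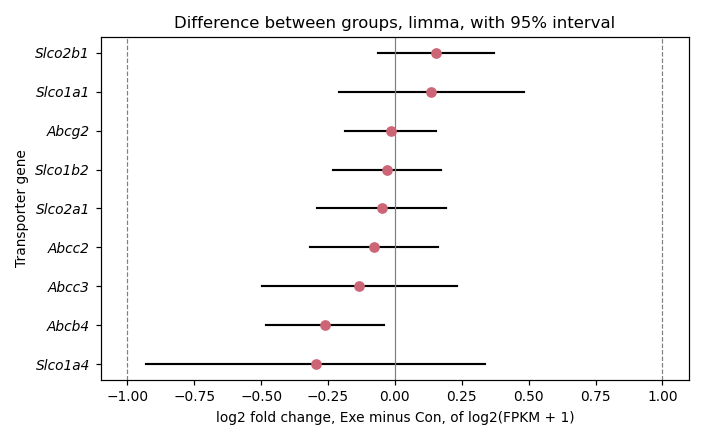
Log2 fold change (Exe minus Con, on the log2(FPKM + 1) scale, horizontal axis) of the 9 transporters that passed the filter, as points with the 95% interval from limma as lines, and dashed lines at the study's threshold of 1 in either direction. Every interval lies within the dashed lines, and the interval of Abcb4, from -0.48 to -0.04, is the one that does not include 0.

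Among the uptake carriers, Slco1b2 had a Con mean of 260 ± 27.97 FPKM and an Exe mean of 255 ± 33.5 FPKM (SD, n = 6 in each group). The lowest, median and highest mouse were at 227, 265 and 286 FPKM in the Con group and at 215, 255 and 304 FPKM in the Exe group. Both extremes of the 12 mice were Exe mice, Exe 6 at the bottom and Exe 2 at the top. The log2 fold change was -0.03 (standard error 0.09, limma adjusted p = 0.977). The 95% interval from -0.23 to 0.17 bounds a difference in either direction.

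Slco1a1 averaged 97.8 ± 23.3 FPKM (Con) and 107 ± 19.9 FPKM (Exe), given as SD with n = 6. Con mice ranged from 70.3 to 125 FPKM with a median of 100.1 FPKM, and Exe mice from 80.1 to 136 FPKM with a median of 109 FPKM. Con 1 and Con 2 were lower than every Exe mouse, and Exe 4 was higher than every Con mouse. Its log2 fold change was 0.14 (standard error 0.16, limma adjusted p = 0.944). Of 12 male-biased liver genes, 11 had a lower and 1 a higher mean log2 value in Exe mice, and their sum in FPKM was 48856 to 58275 FPKM for Con and 24280 to 53921 FPKM for Exe, lowest in Exe 2. The largest parts of that sum were Mup7, Mup20 and Serpina1e, each lowest in Exe 2 (8208, 7446 and 6259 FPKM). The low sum of Exe 2 thus rested largely on these genes. The part of the male-biased genes in the level of Slco1a1 was not tested.

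Slco1a4, an uptake carrier known to be inducible through the xenobiotic receptors CAR and PXR, varied most. It ran from 6.28 to 22.2 FPKM in Con mice (median 15.3 FPKM) and from 5.64 to 20.8 FPKM in Exe mice (median 11.7 FPKM), so the highest of the 12 mice was 3.93 times the lowest. Con 1, Exe 3 and Exe 5 formed the low end, while Con 3 and Exe 2 formed the high end. Its means were 14.4 ± 5.41 and 11.7 ± 5.30 FPKM (SD, n = 6), with a log2 fold change of -0.30 (standard error 0.29, limma adjusted p = 0.932). The interval, from -0.93 to 0.34, was the widest of the 9 members tested and leaves room for a fold change of nearly the study's threshold.

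Slco2b1, a carrier for steroid sulfates and many drugs, differed in its spread. Con mice lay close together, from 39.2 to 44.2 FPKM with a median of 41.1 FPKM, and Exe mice spread from 36.8 to 59.1 FPKM with a median of 47.8 FPKM. Above the Con range were 4 Exe mice (Exe 1, Exe 2, Exe 3 and Exe 6) and below it the other 2 (Exe 4 and Exe 5). The means were 41.1 ± 1.87 and 46.4 ± 8.49 FPKM (SD, n = 6). This amounts to a log2 fold change of 0.15 (standard error 0.10, limma adjusted p = 0.899), and p was 0.188 in an exact permutation test (two-sided).

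The 4 uptake carriers summed to 413 ± 54.4 FPKM (Con) and 419.7 ± 56.1 FPKM (Exe), again as SD with n = 6. Slco1b2 made up 63.1% ± 2.20 of this sum in Con mice and 60.8% ± 2.65 in Exe mice. Slco1a1 made up 23.4% ± 2.70 and 25.3% ± 3.002, Slco2b1 10.1% ± 1.62 and 11.1% ± 1.88, and Slco1a4 3.42% ± 0.979 and 2.71% ± 0.891. The differences between groups in these shares were not tested.

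Slco2a1 encodes the prostaglandin transporter, best known from vascular endothelium. Its range was 15.7 to 26.1 FPKM for Con (median 20.7 FPKM) and 16.7 to 20.9 FPKM for Exe (median 20.04 FPKM). The Con mice held both ends, with 3 of them above every Exe mouse and 2 below. Its log2 fold change was -0.05 (standard error 0.11, limma adjusted p = 0.966). Of the 12 markers of sinusoidal endothelium, the mean log2 value in Exe mice was higher for 8 and lower for 4, and their sum was 91.8 to 148.8 FPKM for Con and 107 to 135 FPKM for Exe. The part of endothelial content in the level of Slco2a1 was not tested.

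Of the canalicular pumps, Abcb4 was the one called at the unadjusted threshold. The gene encodes the phospholipid floppase MDR2, which delivers phosphatidylcholine to bile. Con mice ran from 56.7 to 81.2 FPKM (median 65.7 FPKM), whereas Exe mice ran from 45.5 to 65.1 FPKM (median 53.7 FPKM). There were 3 Con mice higher than any Exe mouse and 4 Exe mice lower than any Con mouse. The exceptions were Exe 3 and Exe 4. The means were 66.8 ± 9.36 and 55.5 ± 7.52 FPKM (SD, n = 6), a ratio of 0.832. The log2 fold change was -0.26 (standard error 0.10, 95% interval from -0.48 to -0.04), with an unadjusted p of 0.0241 and an adjusted p of 0.793 in limma. The exact two-sided permutation test gave p = 0.0433, where the smallest possible p is 0.00216. The difference thus passed an unadjusted threshold and failed the correction over all genes.

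This call was lost when certain single mice were left out and with FPKM rescaled to the same sum per mouse. Without Con 2, Con 3 or Exe 1 the unadjusted p of Abcb4 in limma was 0.0598, 0.0533 and 0.0603, and with that rescaling it was 0.0632. Other settings lowered it, to 0.0162 with quantile normalization, 0.0130 with scaling by median ratios and 0.0107 without Exe 4. The log2 fold change of Abcb4 stayed below 0, from -0.31 to -0.20, in each of the 21 alternative fits. In the same libraries, 9 of the 10 hepatocyte markers had a higher and 1 a lower mean log2 value in Exe mice. All 10 Kupffer cell markers and 9 of 10 stellate cell markers had lower mean log2 values in Exe mice, with summed levels of 303 to 558 FPKM (Con) and 219.5 to 501 FPKM (Exe) for the former and of 97.8 to 197 and 93.6 to 179 FPKM for the latter. The 4 bile duct markers that passed the filter were lower as well (median log2 fold change -0.15), and the 10 listed summed to a median of 80.4 FPKM for Con and 45.8 FPKM for Exe. The largest part of that sum in every mouse was Spp1, with a median of 51.5 FPKM for Con and 30.6 FPKM for Exe. The gap between the summed medians thus rested largely on this gene. Of these 4 lists, 0 genes reached an adjusted p of 0.05 in limma. At an unadjusted p of 0.05 in limma, 3 hepatocyte markers passed, 2 of them higher and 1 lower in Exe mice. Of the others, 0 Kupffer cell markers, 0 stellate cell markers and 0 bile duct markers passed it. The part of cell composition in the level of Abcb4 was not tested.

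Abcc2 encodes MRP2, the pump for bilirubin glucuronides and glutathione conjugates. It ranged from 42.8 to 69.0 FPKM in Con mice (median 52.2 FPKM) and from 43.9 to 62.8 FPKM in Exe mice (median 47.6 FPKM). Con 3 alone exceeded every Exe mouse. The log2 fold change was -0.08 (standard error 0.11, limma adjusted p = 0.954), and without Con 3 it was 0.00029.

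Abcg2, the breast cancer resistance protein, which exports urate, porphyrins and sulfate conjugates, was the steadiest member. It stayed between 31.9 and 42.2 FPKM in all 12 mice, and the highest mouse was 1.32 times the lowest. Means were 37.0 ± 3.59 FPKM (Con) and 36.6 ± 3.82 FPKM (Exe), with n = 6, with a log2 fold change of -0.02 (standard error 0.08, 95% interval from -0.19 to 0.15, limma adjusted p = 0.986). Its sign turned to 0.02 with FPKM rescaled to the same sum per mouse.

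Abcb1a, a gene of the multidrug pump P-glycoprotein, was low. Con values were 0.34 to 0.68 FPKM (median 0.49 FPKM) and Exe values 0.43 to 1.15 FPKM (median 0.735 FPKM). Exe 2, Exe 4 and Exe 6 were above every Con mouse. The means were 0.51 ± 0.133 and 0.755 ± 0.253 FPKM (SD, n = 6). The log2 fold change was 0.21 on the log2(FPKM + 1) scale, where a change at such low FPKM appears smaller than it is, and 0.54 without the pseudocount, and the exact two-sided permutation test gave p = 0.0584. The ratio of the means was between 1.33 (without Exe 2) and 1.61 (without Exe 5) with each mouse left out in turn. In the limma fit without a filter its unadjusted p was 0.0421 and its adjusted p 0.922. Its near relative Abcb1b, with which reads can be shared, had means of 0.395 ± 0.1099 FPKM (Con) and 0.537 ± 0.259 FPKM (Exe) (exact permutation p = 0.286, n = 6).

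The canalicular pumps together summed to 157 ± 15.8 FPKM (Con) and 143 ± 14.3 FPKM (Exe), with n = 6. Abcb4 contributed 42.5% ± 4.44 (Con) and 38.8% ± 3.004 (Exe), and Abcc2 33.6% ± 3.54 and 34.9% ± 2.99. Abcg2 made up 23.6% ± 1.71 and 25.7% ± 2.66, and Abcb1a less than 1% in each mouse.

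Abcc3 encodes MRP3, which exports glucuronides from the hepatocyte back to the blood. It ranged from 42.1 to 88.4 FPKM in Con mice (median 64.8 FPKM) and from 42.7 to 70.7 FPKM in Exe mice (median 53.4 FPKM). Con 1 was at the bottom of all 12 mice and Con 3 at the top. The means were 63.3 ± 16.6 and 56.9 ± 11.005 FPKM (SD, n = 6), with a log2 fold change of -0.13 (standard error 0.17, limma adjusted p = 0.947).

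Between mice of the same group, all 9 members tested varied more than the median gene of similar level. The SD within groups of log2(FPKM + 1) was 0.59 for Slco1a4, above that of 98.7% of the 3409 genes tested with a mean FPKM within a factor of 2 of its own. For Abcc3 it was 0.33 (92.04% of 1319 genes) and for Slco1a1 0.32 (90.2% of 891 genes). The SD of Abcg2, 0.14, was above that of 60.9% of 1872 genes. The other 5 members tested lay between 69.4% (Slco1b2) and 84.1% (Slco2a1).

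Some members varied together. The 10 members form 45 pairs, of which 37 had a positive Pearson correlation of log2(FPKM + 1) across the 12 mice (median r 0.32), and 22 were positive within both groups. Among all pairs of the genes tested, 55.8% were positive in the same libraries (median r 0.053). The values of a pair come from the same libraries. With 100000 permutations and Benjamini-Hochberg adjustment over the 45 pairs, 4 pairs passed an adjusted p of 0.05 by both Pearson's r and Spearman's rho. These were Slco1a4 with Abcc3, Abcc2 with Abcc3, Slco1a1 with Abcc3 and Slco1a4 with Slco1b2. Of all pairs of the genes tested, 0.458% had an r as high as the lowest of these 4. Without Con 1 and Exe 5, 1 of the 4 still passed, Abcc2 with Abcc3.

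Slco1a4 and Abcc3 formed the tightest pair, with r = 0.902 (permutation p = 5e-05, adjusted 0.00225) and rho = 0.874 (permutation p = 0.00044, adjusted 0.0099). Within groups r was 0.96 in Con mice (exact permutation p = 0.00278) and 0.849 in Exe mice (exact permutation p = 0.0347). Mice with little Slco1a4, such as Con 1 (6.28 FPKM) and Exe 5 (5.64 FPKM), also had little Abcc3 (42.1 and 42.7 FPKM). Without these mice, the farthest from the median of Slco1a4, r was 0.82 (permutation p = 0.00414, adjusted 0.0931).

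For Abcc2 and Abcc3, r was 0.796 (permutation p = 0.00178, adjusted 0.0351) and rho 0.776 (permutation p = 0.00445, adjusted 0.04). With quantile normalization this pair was lost by rho (adjusted permutation p = 0.0569). Con 3 held the highest value of both genes, and without Con 3 and Exe 4, the farthest mice in Abcc2, r was 0.63. Within groups it was 0.883 in Con mice and 0.641 in Exe mice (exact permutation p = 0.0222 and 0.157).

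For Slco1a1 and Abcc3, r was 0.791 (permutation p = 0.00266, adjusted 0.0351) and rho 0.86 (permutation p = 0.00085, adjusted 0.0127), with r = 0.962 in Con and 0.741 in Exe mice (exact permutation p = 0.00417 and 0.0931). Without Con 1 and Con 2 r was 0.704, and without Con 1 and Exe 5 the adjusted permutation p was 0.147. For Slco1a4 and Slco1b2, r was 0.782 (permutation p = 0.00312, adjusted 0.0351) and rho 0.874 (permutation p = 0.00041, adjusted 0.0099), with r = 0.788 in Con and 0.793 in Exe mice (exact permutation p = 0.0347 and 0.0583). Without Con 1 and Exe 5 it was 0.715, and the adjusted permutation p was again 0.147.

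With FPKM as deposited, Abcb4, Slco2b1, Abcb1a, Slco2a1 and Abcg2 were in no called pair. For Abcg2, r was 0.68 with Abcc3 (permutation p = 0.0167, adjusted 0.0835) and 0.61 with Slco1a1 (permutation p = 0.0391, adjusted 0.16). With FPKM rescaled to the same sum per mouse, Abcg2 was in called pairs with Abcc3 (r = 0.758) and with Slco1a1 (r = 0.711). The correlations of Abcb4 with the other 9 members ran from -0.452 (Slco2b1) to 0.329 (Abcc3), and those of Slco2b1 reached 0.572 with Abcb1a, a value that fell to -0.027 without Exe 2 and Exe 6. Apart from that pair, Abcb1a had correlations from -0.378 (Slco2a1) to 0.347 (Slco1a4). The values were unlike in the 2 groups, but a difference between the groups was not tested. The partners named next had the strongest r with Abcb1a within Exe mice, and their p-values are unadjusted. Within Exe mice r was 0.942 with Slco1a4, 0.925 with Abcc3 and -0.728 with Slco2a1 (exact permutation p = 0.00694, 0.0111 and 0.0931). Within Con mice it was 0.106, -0.127 and -0.258 (exact permutation p = 0.869, 0.793 and 0.589).

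**Figure D3:**
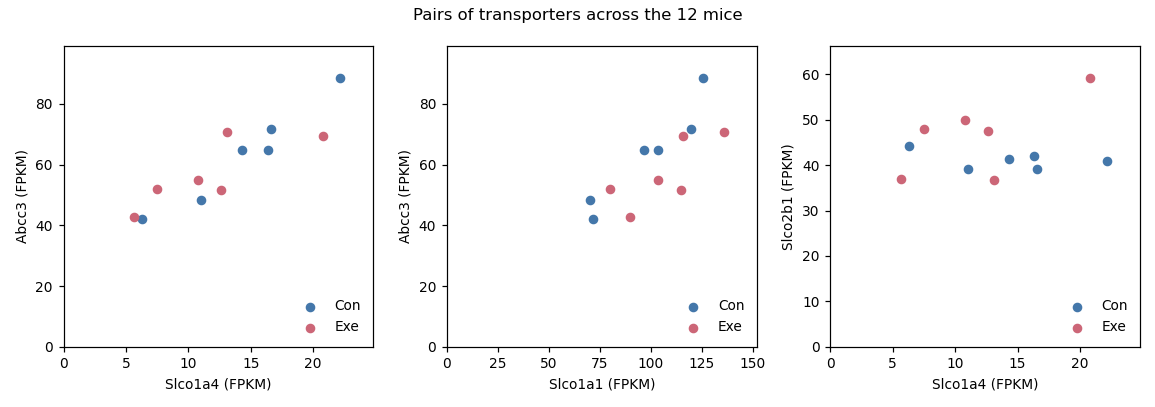
FPKM of pairs of transporters, 1 point per mouse, Con in blue and Exe in red, with all axes starting at 0. Slco1a4 and Abcc3 (left, r = 0.902 on the log2 scale) and Slco1a1 and Abcc3 (middle, r = 0.791) rise together over both groups, whereas Slco1a4 and Slco2b1 (right, r = 0.185) do not.

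The libraries also differed in acute-phase genes, which the liver expresses in inflammation. The 12 acute-phase genes listed had sums from 10194 to 47598 FPKM (Con) and from 10509 to 48405 FPKM (Exe), highest in Con 1 and Exe 5. The mean log2 value in Exe mice was lower for 11 of these genes and higher for 1, with 0 at an unadjusted p of 0.05 in limma. Con 1 and Exe 5 were also among the lowest 3 of the 12 in 7 of the 10 transporters each. Con 2 was among the lowest 3 in 5 transporters and Con 6 in 0, with acute-phase sums of 33430 and 25012 FPKM. How often these mice were among the lowest 3 over all genes was not counted. Con 3 was among the highest 3 in 8 transporters, with an acute-phase sum of 27469 FPKM.

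Across the 12 mice, 9 of the 10 transporters had a negative Pearson correlation with the mean log2 level of the acute-phase genes, but 0 of these 10 relations passed an adjusted p of 0.05 in the permutation tests. Of the genes tested other than the acute-phase genes, 60.1% had a negative correlation with that level. At an unadjusted p of 0.05, 2 transporters passed by Pearson's r, Slco1a1 and Slco1b2, and 4.76% of the genes had an r as low as theirs. By Spearman's rho, Slco1a1 and Abcc3 passed. For Slco1a1, r was -0.696 (permutation p = 0.0141, adjusted 0.0921) and rho -0.706 (permutation p = 0.013, adjusted 0.127), and r was -0.608 in Con and -0.793 in Exe mice (exact permutation p = 0.172 and 0.0514). For Slco1b2, r was -0.683 (permutation p = 0.0184, adjusted 0.0921) and rho -0.587 (permutation p = 0.05, adjusted 0.167), with -0.784 in Con and -0.687 in Exe mice (exact permutation p = 0.0625 and 0.117). Without Con 1 and Exe 5, r was -0.591 for Slco1a1 and -0.55 for Slco1b2. For Slco1a4 it went from -0.555 (permutation p = 0.0651) to -0.143 without these mice, although it was -0.885 within the Exe mice (exact permutation p = 0.0236) and -0.452 within the Con mice (exact permutation p = 0.417). Abcc3 had r = -0.574 (permutation p = 0.0525) and rho = -0.65 (permutation p = 0.0253, adjusted 0.127), with r = -0.945 in Exe and -0.476 in Con mice (exact permutation p = 0.00833 and 0.3) and -0.246 without Con 1 and Exe 5. Abcb1a had r = -0.88 in Exe mice and 0.457 in Con mice (exact permutation p = 0.025 and 0.351). The part of the acute-phase level in the variation of the transporters was not tested beyond these values.

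**Figure D4:**
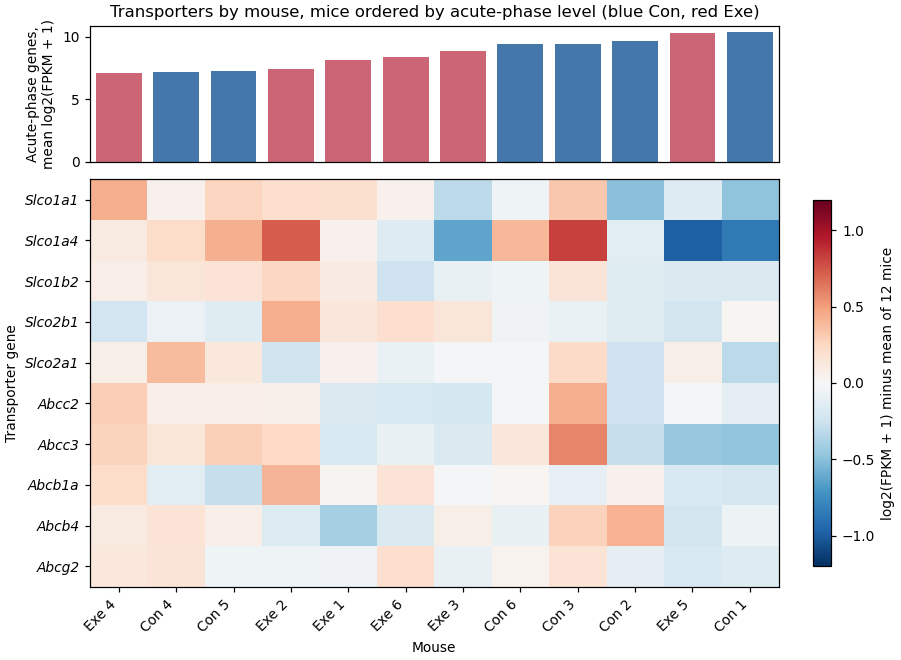
Top, mean log2(FPKM + 1) of 12 acute-phase genes per mouse (bars from 0, blue Con, red Exe), with mice ordered by it. Bottom, log2(FPKM + 1) of each transporter minus its mean over the 12 mice (colour, red higher and blue lower). Exe 5 and Con 1, at the right, are low in Slco1a4 and Abcc3, and Con 3 is high in both.

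Other transporters of the hepatocyte were examined as a list. It held 39 genes, of which 38 were in the tables and 26 passed the filter, 12 with a higher and 14 with a lower mean log2 value in Exe mice (median log2 fold change -0.01). In limma 0 reached an adjusted p of 0.05 and 0 an unadjusted p of 0.05. The most abundant was Slc10a1, the sodium-dependent bile acid carrier NTCP, with means of 409 ± 42.8 FPKM (Con) and 455 ± 93.7 FPKM (Exe), where n = 6. Abcb11, the bile salt export pump, had means of 121 ± 18.6 and 130.4 ± 27.9 FPKM. Slc22a30 was at 102.7 ± 23.3 and 114 ± 21.4 FPKM and Slc22a18 at 83.3 ± 5.45 and 86.3 ± 8.60 FPKM. The limma adjusted p of these 4 genes was between 0.931 and 0.958. Slco1a5, a close relative of Slco1a1 and Slco1a4, was listed at 0 in 10 of the 12 mice.

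The regulators of these transporters were examined as 17 genes, all of which passed the filter, 7 with a higher and 10 with a lower mean log2 value in Exe mice, and with 0 at an adjusted and 0 at an unadjusted p of 0.05 in limma. Nr1i3, the gene of the xenobiotic receptor CAR, had means of 80.2 ± 11.2 FPKM (Con) and 104 ± 30.1 FPKM (Exe), where n = 6, with a log2 fold change of 0.33 (standard error 0.17, limma adjusted p = 0.833). Nr1i2, the gene of PXR, was at 27.7 ± 4.62 and 27.5 ± 3.47 FPKM (log2 fold change -0.004). The bile acid receptor gene Nr1h4 was at 71.4 ± 9.40 and 70.8 ± 13.3 FPKM, and Ppara at 30.5 ± 4.17 and 29.4 ± 5.78 FPKM. Hnf4a, a master regulator of hepatocyte genes, was at 162 ± 21.95 and 149 ± 21.9 FPKM. The stress sensor genes Ahr and Nfe2l2 were at 7.05 ± 1.30 and 6.51 ± 1.59 FPKM and at 26.8 ± 3.95 and 28.3 ± 6.62 FPKM. The log2 fold changes of Nr1i2, Nr1h4, Ppara, Hnf4a, Ahr and Nfe2l2 lay between -0.12 and 0.06.

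For each member tested, the genes whose deviations from the group means ran most like its own over the 12 mice were listed, out of all genes tested, as a description. For Slco1a4 these were Cbr1 (r = 0.953) and Retsat (r = 0.925), which encode carbonyl reductase and retinol saturase. For Slco1a1 they were Nab1 (r = 0.929) and Ces1f (r = 0.927), and for Slco1b2 they were Ces1b (r = 0.938) and Sbno1 (r = 0.923), where Ces1f and Ces1b encode carboxylesterases. For Abcc3 they were Magi3 (r = 0.967) and Fbxw2 (r = 0.941), and for Abcc2 Ago1 (r = 0.964) and Sec23ip (r = 0.947). Slco2b1 was followed most closely by Pm20d1 (r = 0.955) and Nit1 (r = 0.927), Slco2a1 by Sec63 (r = 0.930) and Vta1 (r = 0.867), Abcb4 by Tada1 (r = 0.941) and Alg14 (r = 0.939), and Abcg2 by Zbtb43 (r = 0.873) and Ctdsp2 (r = 0.871). Each pair of genes was picked as the highest of all correlations over only 12 mice, so high values come with the choice.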

How the data were processed

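RNA from 12 livers was sequenced on the DNBseq platform. The authors filtered the reads, used HISAT with the build GRCm39, and deposited 1 table of FPKM per mouse. The submitters' processing notes also name mm10 and Bowtie2, with no role given. The tool behind the FPKM is not given in the sources used here. FPKM are not counts, so limma replaced the DESeq of the study.

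The group comparison used limma 3.58.1 under R 4.3.3 (lmFit, eBayes with a trend, pseudocount of 1). Permutation tests used numpy 2.4.6, with ranks from scipy 1.17.1. Motif searches used the pattern matching of Python 3.11.15, and tables were handled with pandas 2.3.3. Single genes were compared by an exact two-sided permutation test of log2 values. The limma fit and the estimate of relative depth were tested on simulated data with known answers. Alternatives covered the pseudocount, the filter, the scaling, robust fitting, a replicate block and leaving out mice. P-values measure the spread between mice, each a single library.

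The members and lists were chosen with earlier results of these data known. Named were the members, Abcb1b, Slco1a5, the 5 most abundant of the other transporters and those at an unadjusted p of 0.05, 8 regulators, the 2 genes most like each member, and no more than 4 genes per marker list. Slco1a6 was not analysed here, and 1 of these transporters, 1 regulator and 1 promoter motif are not reported here.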

Additional observations from a re-analysis of the deposited data

Results flagged for a closer look

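Ppara was at 18.1 FPKM in Exe 3, where the other Exe mice lay between 29.5 and 34.4 FPKM, a gap of 0.697 of the whole range of the group, which passes Dixon's 95% limit for 6 mice. It was the 1 case among 48 sets of 6 mice (the named transporters and regulators in both groups), where chance alone gives about 1 in 20. None of the 10 members had such a mouse in either group.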

How the results depend on the processing

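Alternatives gave 266 values, of which 9 changed sign, 12 were counts that moved by more than 1.5 times, and 245 did neither. Members past both thresholds and genes past both thresholds stayed at 0 in each of the 21 alternative fits. The count of members at an unadjusted p of 0.05 in limma, 1 as reported, was 2 without a filter on low values (Abcb1a added), 0 with FPKM rescaled to the same sum per mouse, 0 to 2 with each mouse left out (0 without Con 2, Con 3 or Exe 1, 2 without Exe 4 or Exe 5, Slco2b1 added), and 2 without Con 1 and Exe 5 together, a choice made after seeing the data. In the last setting 3 members, Slco2b1, Abcb1a and Abcb4, passed 0.05 in the exact permutation test, where 1 did in all 12 mice, and 5 of 9 neighbouring levels held their order in every mouse, where 3 did. The pairs past an adjusted p of 0.05 by both measures, 4 as reported, were 11 with FPKM rescaled to the same sum, 5 with quantile normalization (Abcc2 with Abcc3 lost, Slco1a1 with Abcc2 and Slco1b2 with Abcc3 added) and 1 (Abcc2 with Abcc3, r = 0.95) without Con 1 and Exe 5. The cause was not tested. The sign reversed for Abcg2 (0.0205) and Slco1b2 (0.0084) with FPKM rescaled to the same sum. With each mouse left out, the log2 fold change ran from -0.058 to 0.020 for Abcg2, from -0.082 to 0.018 for Slco1b2, from -0.146 to 0.00029 for Abcc2 and from -0.12 to 0.020 for Slco2a1. The other 5 members tested kept their sign in all 21 alternative fits, but leaving out 1 mouse moved 4 of them by over 1.5 times, at the extremes Slco1a4 (-0.30) to -0.50 without Con 1 and -0.13 without Exe 5, Abcc3 (-0.13) to -0.24 without Con 1 and -0.03 without Con 3, Slco1a1 (0.14) to 0.05 without Con 2 and 0.21 without Con 3, and Slco2b1 (0.15) to 0.08 without Exe 2.

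The replicate numbers shared by the groups were not treated as pairs of mice. The correlations of same-numbered deviations ran from -0.478 to 0.165, which cannot show whether the numbers carry a pairing. With the replicate block, the count of members at an unadjusted p of 0.05 was again 1, and the log2 fold change of Abcb4 was -0.26 with an adjusted p of 0.863 in limma.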
